A study of Mus musculus with 6 samples.

Results

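Estrogen receptor alpha (ERα) peaks found 1 h after tamoxifen in the uterus of AF-2 mutant mice were compared with those found after vehicle, from 1 list of called peaks per treatment. The members were every peak of both lists, 36538 with tamoxifen and 5027 with vehicle, 41565 of the 154923 peaks in all 6 lists of the series. They were divided by whether a peak of one list overlapped a peak of the other by 1 bp or more. This gave 4 classes, namely tamoxifen peaks with and without a vehicle peak, and vehicle peaks with and without a tamoxifen peak. Positions are in the mouse build mm9 and count from 1.

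The study used chromatin immunoprecipitation and sequencing (ChIP-seq) on whole uteri. All mice were ovariectomized 12-week-old C57BL/6J females, either AF2ERKI knock-ins, which carry ERα with a mutated AF-2 in every cell that makes it, or wild-type littermates. The tamoxifen group received 2 mg/kg tamoxifen in DMSO by intraperitoneal injection, the ICI group 2 mg/kg fulvestrant (ICI182780) and the vehicle group 50 µl DMSO. Each group was 1 library from 6 pooled uteri, so no spread between mice or libraries can be given and no difference between treatments was tested. Every sample title also holds an unexplained code, E1h. A whole uterus mixes epithelium, stroma, muscle and immune cells, and a site bound in fewer cells cannot be told apart from one bound less often per cell. The lists hold positions only, so the tissue could not be checked against marker genes, and read depth is unknown.

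ERα is a nuclear receptor that binds DNA at estrogen response elements or through other factors already on chromatin. Its ligand-binding domain carries activation function 2 (AF-2), the groove that takes up coactivators when estrogen is bound, while activation function 1 (AF-1) lies in the N-terminal part and works without that groove. Tamoxifen fits the ligand pocket but moves the last helix of the domain over the coactivator groove. It blocks estrogen action in the breast and acts partly as an estrogen in the uterus, an activity ascribed largely to AF-1. The comparison asks where the AF-2 mutant receptor was found on chromatin after tamoxifen and after vehicle.

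Tamoxifen peaks with a vehicle counterpart were a small class. Of the 36538 tamoxifen peaks, 3115 overlapped a vehicle peak (8.53%, exact 95% interval 8.24 to 8.82) and 33423 did not. Of the 5027 vehicle peaks, 3115 overlapped a tamoxifen peak (62.0%, 60.6 to 63.3) and 1912 did not. Each overlapping peak had exactly 1 partner, so the shared sites are 3115 pairs. The 5027 vehicle peaks thus set a ceiling on the tamoxifen share. Such a ceiling differs between comparisons with the lengths of their lists. Intervals here and below cover counting error only, and neighbouring peaks are not independent. The same shares were 7.85% and 78.9% for tamoxifen in the wild type, and 6.71% and 61.2% for ICI in the mutant, whose vehicle list is the same library. The mutant vehicle list thus left a larger share outside the tamoxifen list than the wild-type vehicle list did, by values from 1 library each. A peak missing from a list can still be bound below the authors' threshold, and that threshold is unknown here.

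The first sites along chromosome 1 show the classes. The tamoxifen peak at 4764368 to 4764567 overlapped the vehicle peak at 4764347 to 4764546, and peaks of the mutant ICI and wild-type tamoxifen lists lay there too. The tamoxifen peak at 3349982 to 3350181 had no vehicle peak and was in all 3 other ligand lists. The vehicle peak at 4416945 to 4417144 was in no other list of the series. These were taken by order along the chromosome, not by strength.

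Shared sites were placed closely but less exactly than between other lists. In the 3115 pairs, the midpoint of the vehicle peak lay a median of 26 bp from that of the tamoxifen peak (95% interval 25 to 28; quartiles 11 and 55 bp). In 72.2% of pairs the offset was at most 50 bp (70.6 to 73.8). The offset had no preferred side, with the vehicle midpoint at the higher coordinate in 1509 pairs, at the lower in 1562 and at the same base in 44. For comparison, mutant tamoxifen peaks lay a median of 12 bp from mutant ICI peaks over 31271 pairs and 12 bp from wild-type tamoxifen peaks over 23914 pairs. They lay 14 bp from wild-type vehicle peaks over 2829 pairs (13 to 15), a list shorter than the mutant vehicle list. In the wild type, vehicle and tamoxifen peaks lay 14 bp apart over 2930 pairs, and 87.8% of these were within 50 bp (86.6 to 89.0). The larger offset therefore went with the mutant vehicle library, whose peaks also lay 27 bp from mutant ICI and 45 bp from wild-type ICI peaks. From the wild-type vehicle peaks they lay a median of 19 bp over 1093 pairs (17 to 21). Depth and peak strength, which can set how exactly a midpoint is placed, are unknown, and their part was not tested.

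Vehicle peaks without a tamoxifen partner lay at all distances from one, and became fewer per length with distance. Of the 1912, 401 lay within 1 kb of a tamoxifen midpoint (21.0%, 19.2 to 22.9), 908 within 10 kb (47.5%) and 1788 within 100 kb (93.5%). Counted per 100 bp of distance, vehicle peaks numbered 316 at 100 to 200 bp, where peaks still overlap, 142 at 200 to 300 bp, 66.5 at 300 to 500 bp and 25.2 at 500 to 1000 bp. The number went on falling, to 11.0 at 1000 to 2000 bp and 1.67 at 10000 to 50000 bp. The overlap rule thus cuts through a continuous decline, and 142 vehicle peaks lay just outside it. Of the 401 near ones, 31 lay beside a tamoxifen peak that had another vehicle peak of its own (7.73%, 5.31 to 10.8). Over all tamoxifen peaks the share was 8.53%. The 2 are not fully comparable, since vehicle peaks lay at least 261 bp apart, which leaves less room for another one beside a near peak. Where a gap of up to 1000 bp counts as shared, 70.5% of vehicle peaks and 11.2% of tamoxifen peaks had a partner.

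**Figure D1:**
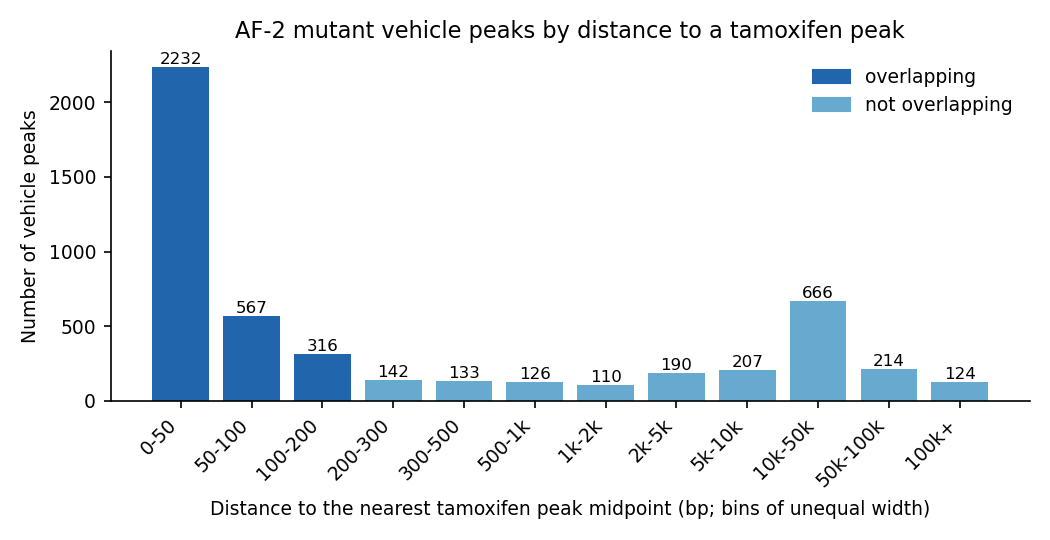
Number of AF-2 mutant vehicle peaks (vertical axis) by the distance in bp from their midpoint to the nearest tamoxifen midpoint (horizontal axis, bins of unequal width). Dark bars overlap a tamoxifen peak and light bars do not; there are 2232 peaks below 50 bp and 142 at 200 to 300 bp, and the 666 at 10000 to 50000 bp come from a far wider bin, where the number per 100 bp is lower than in every nearer bin.

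At the far end, 4 vehicle peaks lay over 1000 kb from any tamoxifen peak, 1 of them on an unplaced sequence. The other 3 were on chromosome 1 at 125247958 to 125248157, 1.24 Mb away, on chromosome 3 at 7366460 to 7366659, 1.09 Mb away, and on chromosome 12 at 14289771 to 14289970, 1.03 Mb away. Each was also called in at least 1 other list. The chromosome 1 peak was also called with mutant ICI, the chromosome 3 peak with wild-type vehicle, and the chromosome 12 peak with mutant ICI and wild-type tamoxifen.

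In the other direction, most tamoxifen peaks without a vehicle peak had none within 10 kb. Their median distance to the nearest vehicle peak was 95.3 kb (93.3 to 97.1), with quartiles of 31.3 and 240.0 kb. Only 876 of the 33423 lay within 1 kb (2.62%, 2.45 to 2.80) and 3611 within 10 kb (10.8%), while 1005 lay over 1000 kb away (3.01%). Tamoxifen peaks that did have a vehicle peak lay a median of 85.1 kb from the next vehicle peak (80.4 to 90.3). Within 100 kb of a vehicle peak were 17168 of the 33423 (51.4%, 50.8 to 51.9). Vehicle peaks themselves lay a median of 87.3 kb from the next vehicle peak. These distances thus depend on how few peaks the vehicle list holds, and do not set the unshared tamoxifen peaks apart.

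Tamoxifen peaks with and without a vehicle peak had similar median spacing. With a vehicle peak, the median distance to the next tamoxifen peak was 7.86 kb (7.37 to 8.56), with quartiles of 1.82 and 27.0 kb. Without one it was 7.74 kb (7.56 to 7.92), with quartiles of 2.05 and 22.9 kb. The medians differed by less than their intervals, while the class with a vehicle peak spread wider on both sides. Within 1 kb of the next tamoxifen peak were 17.4% of the peaks with a vehicle peak (16.1 to 18.8) and 15.4% of those without (15.0 to 15.8), and the 90th percentiles were 67.5 and 56.9 kb. Counted in bins of equal log width, both classes had a mode below 1 kb and another around 10 kb. With peaks closer than 1000 bp merged first, the medians were 12.2 kb (11.5 to 12.8) and 11.1 kb (10.9 to 11.4), and these intervals do not overlap.

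Around vehicle peaks, the distance to other tamoxifen peaks differed between the classes when each peak was counted singly, and not beyond counting error once close peaks were merged. The nearest tamoxifen peak that did not overlap lay a median of 7.86 kb from vehicle peaks with a partner (7.36 to 8.56) and 11.5 kb from those without (10.2 to 13.0). The unpartnered class also had more peaks very close to a tamoxifen peak, with a 10th percentile of 0.357 kb against 0.626 kb. This is partly set by the classes, since a partnered peak has its closest tamoxifen peak left out and the list keeps its peaks at least 289 bp apart. With peaks closer than 1000 bp merged first, the medians were 12.3 kb (11.6 to 12.9) and 12.6 kb (11.3 to 14.5), with overlapping intervals. In the wild type the unmerged medians were 9.92 and 12.7 kb. Within the vehicle list itself the classes were alike, with medians of 85.1 kb (80.5 to 90.3) and 90.1 kb (84.5 to 97.5) to the next vehicle peak.

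**Figure D2:**
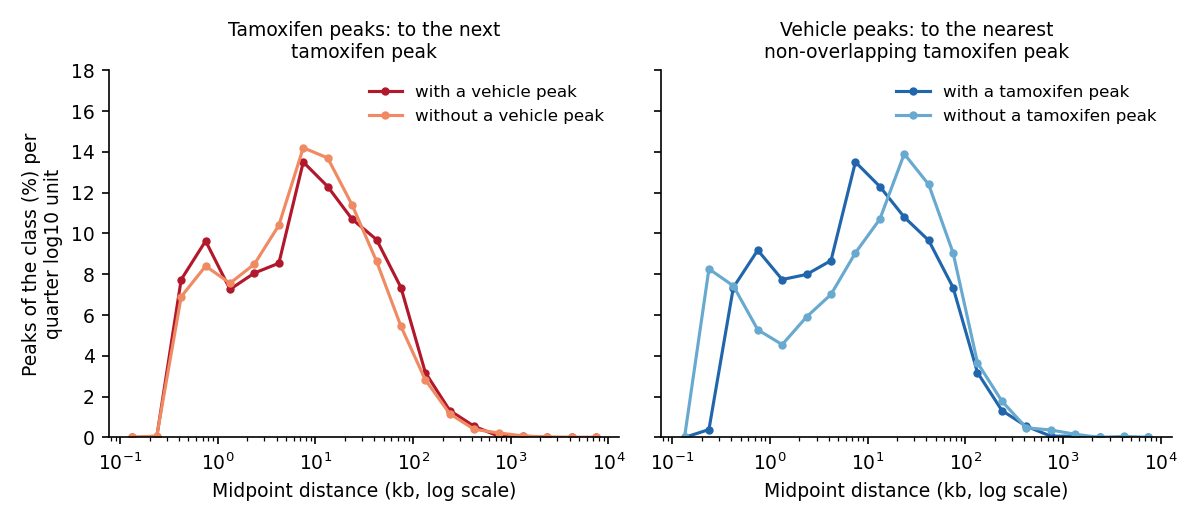
Share of each class in percent per bin of equal log10 width (vertical axis) by midpoint distance in kb on a log scale (horizontal axis). Left, tamoxifen peaks to the next tamoxifen peak, medians 7.86 kb with and 7.74 kb without a vehicle peak; right, vehicle peaks to the nearest tamoxifen peak that does not overlap, medians 7.86 and 11.5 kb.

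Tamoxifen peaks were strongly clustered. Vehicle sites were spread over the clusters roughly in proportion to their tamoxifen peaks, with a somewhat lower share in the larger ones. When tamoxifen peaks with midpoints within 10 kb of each other were joined into runs, 20450 peaks lay in 7515 runs of 2 or more (56.0%, 55.5 to 56.5) and 16088 stood alone. With gaps of 5, 20 and 50 kb, 39.3%, 72.1% and 88.0% lay in such runs. Runs of 5 or more numbered 583 and held 3731 peaks (10.2%). In the wild type, 52.5% of tamoxifen peaks lay in runs of 2 or more, in a list of similar length. In the mutant vehicle list itself, only 585 peaks lay in runs (11.6%, 10.8 to 12.6), in a list with far fewer peaks. Divided by the mean spacing of its list, the mean nearest distance was similar, 0.353 for mutant tamoxifen and 0.367 for mutant vehicle. The median nearest distance, divided likewise, was 0.107 and 0.166.

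The share of tamoxifen peaks with a vehicle peak differed little between small runs and was lowest in the few runs of 10 or more. It was 8.76% for peaks standing alone (8.33 to 9.21), 8.57% in pairs (8.01 to 9.16) and 8.49% in runs of 3 or 4 (7.86 to 9.15). It was 7.70% in runs of 5 to 9 (6.81 to 8.67) and 5.99% in runs of 10 to 17, where 29 of 484 peaks had a vehicle peak (4.05 to 8.49). Only the last interval stays below 8.53%. For runs of 10 or more, the other comparisons did not show this low value. With wild-type tamoxifen the share was 8.99% there (5.84 to 13.1) and 8.22% for lone peaks (7.82 to 8.64). With mutant ICI these were 7.41% (5.89 to 9.19) and 6.88% (6.52 to 7.26). Over all runs of 5 or more, however, the share was below that of lone peaks in every comparison. It was 7.48% with mutant tamoxifen (6.65 to 8.37), 7.11% with wild-type tamoxifen (6.25 to 8.05) and 5.98% with mutant ICI (5.40 to 6.60). Counted by run, the share with at least 1 vehicle site was 8.76%, 16.2%, 24.0%, 36.7% and 53.7% in the same order, which follows from the number of peaks per run.

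Within runs, the neighbour of a shared tamoxifen peak was itself shared somewhat more often than the neighbour of an unshared one, though most neighbours of both were unshared. Among 12935 pairs of neighbouring tamoxifen peaks within 10 kb, both had a vehicle peak in 113, 1 had it in 1906 and neither in 10916. The neighbour of a tamoxifen peak with a vehicle peak had one itself in 10.6% of cases (9.33 to 12.0), against 8.03% for the neighbour of a peak without (7.69 to 8.38). These shares count each pair from both ends, so their intervals are too narrow. In the wild type they were 7.61% and 7.40%, and for mutant ICI, with the same vehicle library, 9.81% and 6.33%.

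In the 3 runs with the most tamoxifen peaks, 0 of 17, 3 of 16 and 1 of 16 had a vehicle peak. Counts this small cannot be told apart from the 8.53% over all tamoxifen peaks. The run of 17 spanned 69.7 kb on chromosome 5 at 125591569 to 125661267. None of its tamoxifen peaks overlapped the 1 vehicle peak in the run. Here mutant ICI had 16 peaks, wild-type tamoxifen 15 and wild-type ICI 10. A run of 16 on chromosome 2 at 172627337 to 172697979 held 3 vehicle peaks, all shared, and another of 16 on chromosome 8 at 122510591 to 122581452 held 1, also shared. Wild-type tamoxifen had 9 and 13 peaks in these, so the runs were not limited to the mutant.

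Seen in windows of 100 kb, both classes of vehicle peaks followed the density of tamoxifen peaks. Of 26368 windows on chromosomes 1 to 19 and X, 12639 held a tamoxifen peak and 4021 a vehicle peak, and 3705 held both. This is 29.3% of the windows with a tamoxifen peak and 92.1% of those with a vehicle peak. These shares grow with the window, to 59.3% and 98.7% at 500 kb. The 92.1% is largely set by the classes, since 2647 of the 4021 windows held a vehicle peak with a tamoxifen partner. Of the 1731 windows with an unpartnered vehicle peak, 316 held no tamoxifen peak. The variance of peak number per window was 3.44 times its mean for tamoxifen and 1.32 times for vehicle, where independent placement would give a ratio near 1. It was 1.25 for vehicle peaks with a partner and 1.13 for those without, and a sparse list lies nearer to 1 in any case.

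Most vehicle peaks without a partner lay in windows that also held a tamoxifen peak. Windows with no tamoxifen peak made up 52.1% of all windows and held 335 of the unpartnered vehicle peaks, 0.244 per Mb (exact Poisson interval 0.219 to 0.272). Their density was 0.863 per Mb in windows with 1 tamoxifen peak (0.779 to 0.953), 1.43 with 3 or 4 (1.29 to 1.57) and 2.76 with 10 or more (2.20 to 3.40), which is 11.3 times that of windows without. Partnered vehicle peaks went from 0.981 to 9.55 per Mb over the windows with 1 and with 10 or more, as more tamoxifen peaks also offer more partners. The share of tamoxifen peaks with a vehicle peak went from 9.83% in windows with 1 tamoxifen peak to 7.67% with 5 to 9. It was 8.15% with 10 or more. In the wild type the unpartnered vehicle peaks went from 0.130 per Mb in windows without a tamoxifen peak to 0.340 in windows with 1 and 0.841 in windows with 10 or more. Unpartnered vehicle peaks were thus denser in windows with more tamoxifen peaks, at other bases of the same 100 kb. They include the 401 within 1 kb of a tamoxifen midpoint, and more tamoxifen peaks also offer more such near positions. Differences between windows in gene density or in how well they can be mapped were not taken into account.

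**Figure D3:**
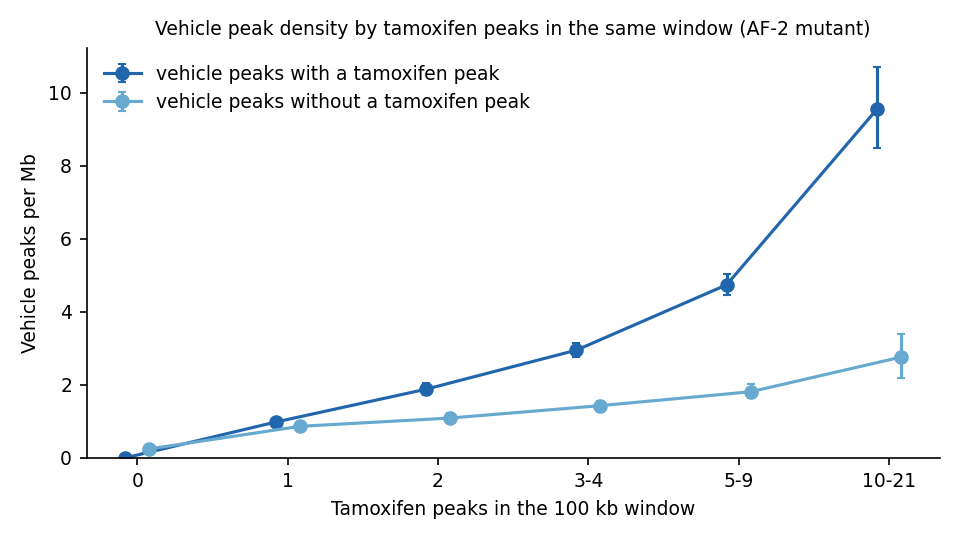
Vehicle peaks per Mb (vertical axis) in windows of 100 kb grouped by their number of tamoxifen peaks (horizontal axis), with exact Poisson intervals for counting error. Vehicle peaks with a tamoxifen partner reach 9.55 per Mb and those without reach 2.76 per Mb in windows with 10 to 21 tamoxifen peaks.

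The windows with most peaks illustrate how unequal the lists were. The window with most tamoxifen peaks, chromosome 8 at 122500001 to 122600000, held 21, of which 1 had a vehicle peak. Next came chromosome 4 at 149200001 to 149300000, with 2 of 20 tamoxifen peaks shared, and chromosome 1 at 74000001 to 74100000, with 4 of 19. On chromosome 5 at 125600001 to 125700000, all 18 tamoxifen peaks lacked a vehicle peak. The most pairs in a window were on chromosome 5 at 120000001 to 120100000, where all 5 vehicle peaks were shared and 11 of 16 tamoxifen peaks were not. The wild-type vehicle list also had 6 peaks there.

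The windows richest in vehicle peaks were also bound with tamoxifen. Chromosome 11 at 35000001 to 35100000 and chromosome X at 96600001 to 96700000 each held 6 vehicle peaks, of which 4 were shared, beside 8 and 12 tamoxifen peaks. On chromosome 1 at 75300001 to 75400000, 4 of 5 vehicle peaks were shared. Most vehicle peaks without a partner were single, with 1567 windows holding 1, 150 holding 2, 12 holding 3 and 2 holding 4. Those last 2 differed in their surroundings. On chromosome 2 at 153300001 to 153400000 there were also 6 tamoxifen peaks, 1 of them shared, while on chromosome 4 at 43000001 to 43100000 there was 1, against 6 with mutant ICI. On chromosome 2 at 32500001 to 32600000, 3 vehicle peaks and 10 tamoxifen peaks shared no site.

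Mutant tamoxifen peaks with and without a mutant vehicle peak were found in the other ligand lists in similar shares. Of the tamoxifen peaks with a mutant vehicle peak, 86.5% were in the mutant ICI list (85.2 to 87.7), 64.5% in the wild-type tamoxifen list (62.8 to 66.2) and 48.2% in the wild-type ICI list (46.4 to 49.9). Of those without, 85.5% (85.1 to 85.9), 65.5% (65.0 to 66.0) and 48.2% (47.7 to 48.8) were. All 3 lists held 39.8% of the first class (38.1 to 41.6) and 41.3% of the second (40.8 to 41.8). With an overlap of at least 100 bp with those lists the shares were 37.1% (35.4 to 38.8) and 40.1% (39.6 to 40.6), slightly lower in the first class. The classes differed in the wild-type vehicle list, which held 28.5% of the first (27.0 to 30.2) and 5.80% of the second (5.56 to 6.06).

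The wild-type vehicle list did separate the same tamoxifen peaks. Mutant tamoxifen peaks at a site of the wild-type vehicle list only, 1940 in number, were in all 3 other ligand lists in 86.9% of cases (85.3 to 88.4). Those at a site of the mutant vehicle list only, 2226 in number, were so in 36.3% (34.3 to 38.3), near the 38.5% of the 31483 in neither vehicle list (38 to 39). The 889 in both vehicle lists lay between, at 48.8% (45.5 to 52.2). The gap between the last and the first of these groups was widest in the wild-type ICI list, which held 89.6% of sites of the wild-type vehicle list only (88.2 to 91.0) and 52.9% of sites of both (49.5 to 56.2). In the wild-type tamoxifen list, all 3 other ligand lists held 72.4% of peaks with a wild-type vehicle peak (70.8 to 74.0) and 37.6% of those without (37.1 to 38.1). The mutant vehicle list also divided the wild-type tamoxifen peaks, since all 3 held 56.4% of the peaks it overlapped (54.3 to 58.4) against 39.3% of the remainder (38.8 to 39.8). These values compare single libraries, and the quality of the mutant vehicle library, in which 62.0% of peaks had a tamoxifen partner against 78.9% in the wild type, was not tested.

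**Figure D4:**
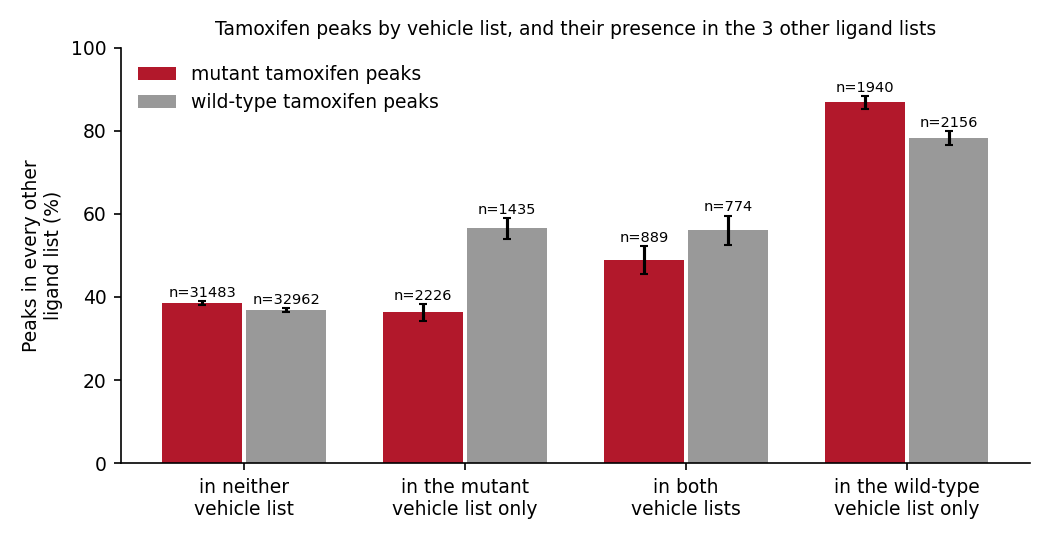
Percent of tamoxifen peaks found in every other ligand list (vertical axis), by the vehicle lists that hold the site (horizontal axis); red, mutant tamoxifen peaks against mutant ICI, wild-type tamoxifen and wild-type ICI; grey, wild-type tamoxifen peaks against the other 3. Bars are shares with exact 95% intervals and n is the number of peaks; mutant peaks reach 86.9% in the wild-type vehicle list only and 36.3% in the mutant vehicle list only.

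Of the vehicle peaks without a tamoxifen partner, 714 of 1912 were in at least 1 of the 4 other lists (37.3%, 35.2 to 39.6). By list, 20.7% were in the mutant ICI list (18.9 to 22.5), 10.4% in the wild-type tamoxifen list, 10.6% in the wild-type ICI list and 10.5% in the wild-type vehicle list. Within 1000 bp of such a peak, the first 3 lists had a peak in 41.1%, 26.6% and 29.1% of cases. In none of the 4 was the site called for 1198 of them (62.7%, 60.4 to 64.8). Those near to and far from a tamoxifen peak were alike in this, with 61.6% (56.6 to 66.4) of those within 1 kb of a tamoxifen peak and 62.9% (60.4 to 65.4) of the rest in no other list. In the wild type, 38.9% of the 782 unpartnered vehicle peaks were in none of the other lists (35.4 to 42.4), and 39.6% were in the mutant vehicle list (36.2 to 43.2).

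The presence of vehicle peaks in the mutant ICI list changed abruptly with the overlap. It was 86.5% for vehicle peaks with a tamoxifen midpoint under 50 bp away, 85.9% at 50 to 100 bp and 83.2% at 100 to 200 bp (78.6 to 87.2), and 16.2% at 200 to 1000 bp (12.7 to 20.2). Mutant tamoxifen and mutant ICI peaks lay a median of 12 bp apart, so this step is partly set by the classes. The wild-type ICI list held 46.3% of the vehicle peaks under 50 bp from a tamoxifen midpoint (44.2 to 48.4) and 62.7% of those at 100 to 200 bp (57.1 to 68.0). The wild-type vehicle list went the other way, with 31.9% (30.0 to 33.9) and 22.5% (18 to 27.5).

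Along the chromosomes the shared sites were spread without large exceptions. The share of tamoxifen peaks with a vehicle peak ran from 6.79% on chromosome 3 (5.66 to 8.06) to 9.87% on chromosome 5 (8.67 to 11.2) among autosomes, and was 10.5% on X (8.42 to 12.8). The share of vehicle peaks with a tamoxifen peak ran from 55.0% on chromosome 9 (49.0 to 61.0) and 55.4% on chromosome 2 (50.6 to 60.0) to 69.0% on chromosome 1 (63.8 to 73.9). Chromosome 2 also held the most unpartnered vehicle peaks, 200 or 1.10 per Mb, and chromosome 11 had the highest density of them at 1.14 per Mb. Over the 19 autosomes, the density of unpartnered vehicle peaks followed that of tamoxifen peaks (Pearson r 0.837, Spearman rho 0.854). The percentage of tamoxifen peaks with a vehicle peak did not (0.00984 and 0.0123). The percentage of vehicle peaks with a tamoxifen peak was not set against density. These values describe chromosomes in 1 pair of libraries. Differences in gene density between chromosomes were not taken into account, and read depth is unknown.

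**Figure D5:**
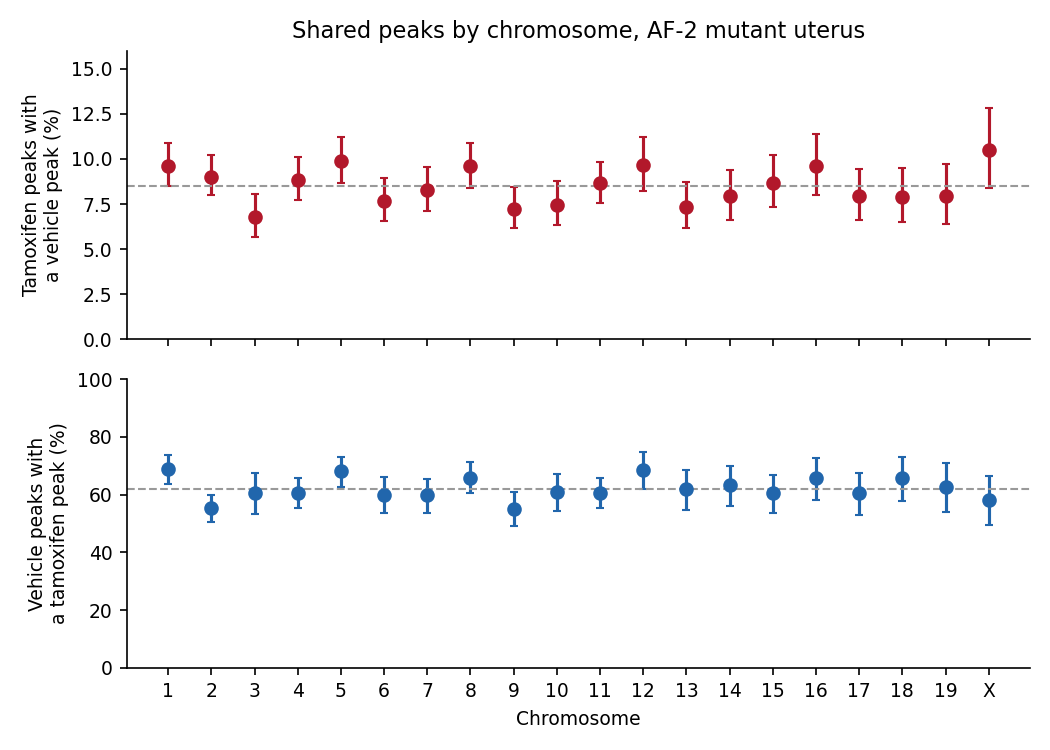
Percent of tamoxifen peaks with a vehicle peak (top) and of vehicle peaks with a tamoxifen peak (bottom), vertical axes, by chromosome, horizontal axis; points with exact 95% intervals, dashed lines the share over all chromosomes shown. Most intervals cross the lines. In the top panel chromosomes 3 and 9 are low at 6.79% and 7.24%, and chromosome 5 is high at 9.87%. In the bottom panel chromosomes 2 and 9 are low at 55.4% and 55.0%, and chromosomes 1 and 5 are high at 69.0% and 68.2%.

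The X chromosome was poor in every class, and least so in unpartnered vehicle peaks. Its density relative to the autosomes was 0.318 for tamoxifen peaks without a vehicle peak (4.21 against 13.2 per Mb), 0.401 for shared tamoxifen peaks (0.493 against 1.23) and 0.473 for unpartnered vehicle peaks (0.355 against 0.750). X held 2.1% (1.95 to 2.26), 2.63% (2.1 to 3.26) and 3.09% (2.36 to 3.96) of these classes. The intervals of the first and the last do not overlap. Only 14 tamoxifen peaks and 1 vehicle peak lay outside chromosomes 1 to 19 and X, on unplaced sequences.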

How the data were processed

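The 6 peak lists of the series were used, 1 per library, each library a pool of 6 uteri. The authors deposited positions only, as chromosome, start and end, with no score, height or p-value; each peak was 200 bp wide in every list, which was tested. Bowtie2 2.1.0, SAMtools, Picard, HOMER 4.10.3, bedtools 2.24.0 and the build mm9 are named in the submitters' processing notes, without roles. Settings of the peak caller, input libraries and filters are unknown. They set, with depth, how many peaks a list holds.

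Overlaps, midpoint distances, runs of peaks within 10 kb and counts in windows of 100 kb were computed in Python 3.11.15 using scipy 1.17.1, pandas 2.3.3 and numpy 2.4.6. Overlap counts were checked against bedtools 2.31.1 with 0 differences, and the functions were tested on simulated lists. Chromosome lengths were taken as the last peak end in any list. Shares have exact Clopper-Pearson 95% intervals, medians exact order-statistic intervals, and densities exact Poisson intervals. With 1 library per group no test between treatments was made.

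Windows, runs and single peaks were named by rank (the top 3, ties by chromosome order) or as the first of a class on chromosome 1; presence by both vehicle lists and by distance was added after seeing the data. Members and rules were chosen with earlier results of these data known. Positions relative to genes and estrogen response elements were not analysed here, since the reference gene tables follow GRCm38 and not mm9. Alternatives changed the overlap, the merging of peaks, run gaps, windows and chromosomes.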

Additional observations from a re-analysis of the deposited data

How the results depend on the processing

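Of 83 recomputed values, 25 stayed within the counting interval of the value reported and 58 moved beyond it, mostly because the setting itself changes what is counted. Class shares of tamoxifen and vehicle peaks were 7.68% and 55.8% with an overlap of at least 100 bp, 7.66% and 55.7% with midpoints plus and minus 50 bp, and 11.2% and 70.5% with a gap of up to 1000 bp. With peaks within 1000 bp merged, the tamoxifen share was 9.34%. Median spacing of tamoxifen peaks with and without a vehicle peak, and from vehicle peaks with a partner, became 12.2, 11.1 and 12.3 kb with peaks merged, beside 12.6 kb for vehicle peaks without a partner, so that the vehicle classes no longer differed beyond their intervals while the tamoxifen classes did. Tamoxifen peaks in runs of 2 or more were 39.3%, 72.1% and 88.0% with gaps of 5, 20 and 50 kb and 46.6% with peaks merged. Lone peaks had a vehicle peak in 9.30% and 10.1% at 20 and 50 kb and in 9.71% with peaks merged, and runs of 5 or more in 6.61% at 5 kb; under each of these gaps the larger runs stayed below the lone peaks. Windows of 50 kb gave 21.4% and 86.3%, and of 500 kb 59.3% and 98.7%, for windows with a tamoxifen and with a vehicle peak that held both.

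Presence in every other ligand list kept the order of its groups under both other overlap rules, but mutant tamoxifen peaks with and without a mutant vehicle peak had intervals apart only at 100 bp. With at least 100 bp it was 37.3% in neither vehicle list, 33.8% in the mutant one only and 45.3% in both, and 37.1% and 40.1% with and without a mutant vehicle peak. The wild-type tamoxifen list gave 70.6% and 36.3%. With a gap of up to 1000 bp the same values were 45.5%, 44.1% and 56.9%, then 47.7% and 48.0%, then 76.6% and 44.1%, and the wild-type vehicle list only gave 89.6%. In single lists at 100 bp, tamoxifen peaks with a vehicle peak were in mutant ICI at 84.1%, wild-type ICI at 44.7% and wild-type vehicle at 26.7%. Those without were in mutant ICI at 84.5%, wild-type tamoxifen at 64.8% and wild-type ICI at 46.9%. Unpartnered vehicle peaks were in these 3 lists at 18.4%, 8.79% and 7.06%. With a gap of up to 1000 bp, in the order mutant ICI, wild-type tamoxifen, wild-type ICI and wild-type vehicle, tamoxifen peaks with a vehicle peak were at 89.7%, 68.9%, 56.6% and 30.4%. Those without were at 88.4%, 70.0%, 55.0% and 7.33%, and unpartnered vehicle peaks at 41.1%, 26.6%, 29.1% and 12.3%. The order of the first 2 classes in the mutant and wild-type ICI lists thus turned with the rule.

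No paired analysis was possible because each group has 1 library. A stricter score threshold, other promoter widths and motif mismatches were not run, since the lists carry no scores and no mm9 genome was used here. Without depths or replicates, list length limits every share.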

Other observations

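Tamoxifen peaks and vehicle peaks took similar places along the length of the chromosomes, which in the mouse have the centromere at their start. Each chromosome was divided into 10 equal parts. The first part held 5.78% of tamoxifen peaks without a vehicle peak (5.53 to 6.03), 5.26% of shared peaks (4.51 to 6.11) and 5.13% of unpartnered vehicle peaks (4.18 to 6.21). The last part held 14.4% (14.0 to 14.7), 13.8% (12.6 to 15.1) and 12.5% (11.0 to 14.0) in the same order. All 3 classes were thus sparse at the start and dense at the far end, and the intervals of the shared and the unpartnered vehicle peaks overlapped at both ends. How much of the first part can be mapped with short reads in mm9 was not tested.

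Large parts of the genome had no tamoxifen peak. Stretches of at least 0.5 Mb between neighbouring tamoxifen peaks numbered 701 and covered 35.3% of the length of chromosomes 1 to 19 and X. They held 129 vehicle peaks, 2.57% of that list, or 0.139 per Mb. Vehicle peaks with a tamoxifen partner are kept out of such stretches by definition, and the 129 were 6.75% of the unpartnered ones. The longest was 10.4 Mb on chromosome X at 23133719 to 33490210, with 0 vehicle peaks, 1 mutant ICI, 3 wild-type tamoxifen and 1 wild-type ICI peak. The next was 7.67 Mb on chromosome 7 at 39037161 to 46704587, where none of the 6 lists had a peak. The third, 6.60 Mb on chromosome X at 58917533 to 65514393, had 0 vehicle peaks, and 2 peaks each with mutant ICI and wild-type tamoxifen. Whether such stretches can be mapped with short reads in mm9 was not tested.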
